A study of Mus musculus with 12 samples.

Results

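The genes described here are 32 genes whose products are used as signs of epithelial-mesenchymal transition (EMT). They were taken as a named list, by gene symbol, from a deposited table of 17050 protein-coding genes, and each of the 32 had a row. The rule names the genes and uses no measured value, though the list was drawn up when earlier results of these data were known. The list holds transcription factors, cytoskeletal proteins and cadherins, collagens and other matrix proteins, enzymes that crosslink or cleave matrix, a protease receptor and a secreted binding protein.

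In EMT, epithelial cells loosen their junctions, lose apical-basal polarity and gain a migratory, matrix-producing state. Factors of the SNAI, ZEB and TWIST families bind E-box sequences and repress epithelial genes such as Cdh1, which encodes E-cadherin, while vimentin, fibronectin and N-cadherin rise. TGF-beta, acting through its receptors and SMAD proteins, is a well-known inducer of the program, and in squamous epithelium part of the list, Snai2 among it, is also expressed by ordinary basal keratinocytes.

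The series is an RNA sequencing study of mouse organoids grown from papillomas, which are benign epithelial lesions. Its title places the work in the progression of such lesions to oral squamous cell carcinoma. The labels give 12 samples in 4 groups of 3. Smad4+ organoids (line 1061) received DMSO as vehicle or SB431542 at 10 µM, and Smad4- organoids (line 1059) received the same treatments. SB431542 blocks the kinases of the TGF-beta, activin and nodal type I receptors, and SMAD4 is the partner shared by SMADs of the TGF-beta and BMP branches. Each genotype is 1 organoid line, so genotype and line cannot be told apart. The sources used here do not give how Smad4 was lost, how long treatment lasted or how old the animals were. All groups grew in a DMEM/F12 base with N2 and B27, EGF at 50 ng/ml, FGF10 at 25 ng/ml, and conditioned media holding WNT3A (40%), R-spondin (10%) and the BMP antagonist Noggin (10%).

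The 12 value columns of the table carry names that end in running numbers, and no source used here links these numbers to the samples. The columns were treated as organoid libraries whose group is unknown. They are called libraries 1 to 12 after the numbers in their names, which say nothing of genotype, treatment or replicate. No comparison of genotype or treatment was made, no library was given a group from its values, and no mean was taken over libraries. Libraries held 38069561 to 49737796 counts, lowest in library 8, so that 3 counts, the limit that a count of 0 allows, correspond to 0.0603 to 0.0788 counts per 1000000 counts of the library (CPM). This limit covers counting error only. Smad4 itself had 110.1, 109.7, 97.4, 109.5, 108, 102, 39.2, 51.8, 47.5, 44.8, 54.9 and 46.1 CPM in libraries 1 to 12. The 6 lowest Smad4 values were those of libraries 7 to 12. A count over a whole gene does not show whether a deleted part is read, and no label was inferred from it.

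The libraries had the profile of a squamous epithelium. On the TPM scale (transcripts per 1000000, which also corrects for gene length), the 34 epithelial genes of a list of markers were measured in every case (median of at least 1 CPM over the libraries), and together they took 32404 to 52949 TPM. Krt5, Krt14 and Krt17, keratins of basal and activated keratinocytes, had medians of 11615, 10372 and 4628 TPM. Cdh1 stood between 407 and 568 TPM in the 12 libraries, a narrow range. The summed level of the epithelial list was higher in each of libraries 1 to 6, at 45473 to 52949 TPM, than in any of libraries 7 to 12, at 32404 to 37135 TPM. Abundant keratins carried much of this gap. Krt14 had 13145 to 18810 TPM in libraries 1 to 6 and 5563 to 7599 TPM in libraries 7 to 12. Krt6a had 3843 to 5787 and 1558 to 2694 TPM. Gene by gene, 13 of the 34 (38.2%) were lower in libraries 7 to 12, 6 (17.6%) were higher and 15 overlapped. Among all measured genes, counted in CPM, 14.5% were lower and 16.3% higher, so the share that was higher was near that of all measured genes.

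Many of the 32 genes are best known from connective tissue, so markers of other cell types stand beside them. Of 15 fibroblast genes with a row, 2 were measured, namely Mgp (matrix Gla protein, median 197 TPM) and Gsn (gelsolin, 189 TPM). The third by level was Pdgfrb, at 0.276 TPM. Defining fibroblast genes were near 0: Pdgfra, Pdgfrb and Dcn reached at most 1.45 CPM in any library, and Lum was not analysed here. The summed fibroblast list, carried by Mgp and Gsn, was 581 to 810.4 TPM in libraries 1 to 6 and 153 to 213 TPM in libraries 7 to 12. It thus had the same division of libraries as many EMT genes below, in which its part was not tested. The smooth muscle and pericyte list, of which Notch3 (median 70.6 TPM) and Cspg4 (1.88 TPM) were measured and Lmod1 (0.599 TPM) came next, summed to 61.6 to 111 TPM, with Myh11, Des and Rgs5 at 0.451 CPM or below. Endothelial genes, led by Egfl7, Esam and Pecam1 at medians of 2.45, 0.846 and 0.320 TPM, summed to 3.24 to 5.97 TPM. Skeletal muscle genes, led by Acta1, Myh1 and Ttn, summed to 0.0119 to 1.00 TPM. The immune list summed to 17.1 to 68.2 TPM, nearly all of it Cd68, a lysosomal membrane protein (median 33.1 TPM). Cd74 and Fcer1g followed at 0.722 and 0.617 TPM, with Ptprc and Cd3e at 3 and 1 counts at most. The melanocyte, Schwann and neural list summed to 16.3 to 71.0 TPM, led by Tubb3, Mbp and Pmel at medians of 18.1, 11.5 and 2.14 TPM. It too divided the libraries, at 42.5 to 71.0 TPM in libraries 1 to 6 and 16.3 to 22.0 TPM in libraries 7 to 12, and its part in the orders below was not tested. In the smooth muscle, skeletal muscle, endothelial and immune lists these libraries overlapped. In bulk RNA, fewer cells of a type and less RNA per cell cannot be told apart.

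**Figure D1:**
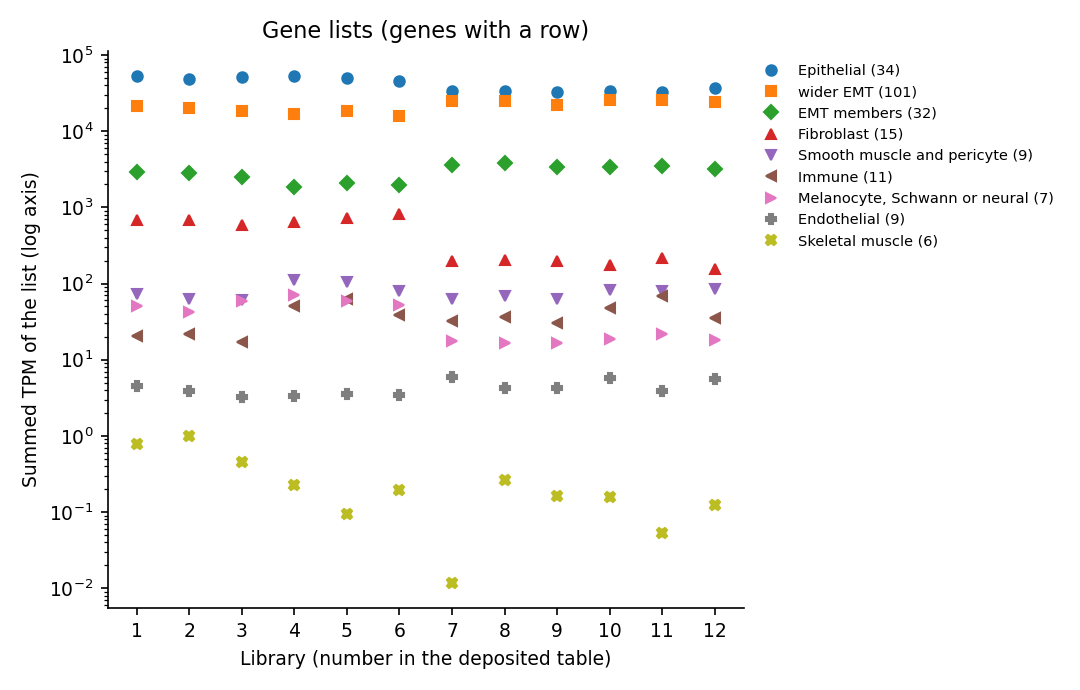
Summed TPM of each gene list (log axis) in each of the 12 libraries, numbered as in the deposited table; the number in brackets is the genes with a row. The epithelial list lies highest, at 32404 to 52949 TPM, the 32 EMT genes lie between 1832 and 3882 TPM, and the endothelial and skeletal muscle lists lie lowest.

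Of the 32 EMT genes, 22 were measured and 10 were not. Among all genes in the table, 69.2% were measured. Cdh2, Cdh11, Col1a1, Col1a2, Col3a1, Mmp3, Snai1, Tagln, Twist2 and Zeb1 fell below the limit. Just above it were Zeb2 at a median of 1.20 CPM and S100a4 at 1.22 CPM, and just below it Twist2 at 0.897 CPM and Col1a1 at 0.875 CPM. The 32 genes summed to 1832 to 3882 TPM per library. By median TPM the highest were the tropomyosins Tpm1 (544 TPM) and Tpm2 (503 TPM), followed by Sparc (382 TPM), Igfbp3 (335 TPM), Tnc (331 TPM), Snai2 (244 TPM) and Mmp14 (217 TPM). Among all genes in the table, the median TPM of Mmp14, the lowest of these 7, stood at percentile 95.9.

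**Figure D2:**
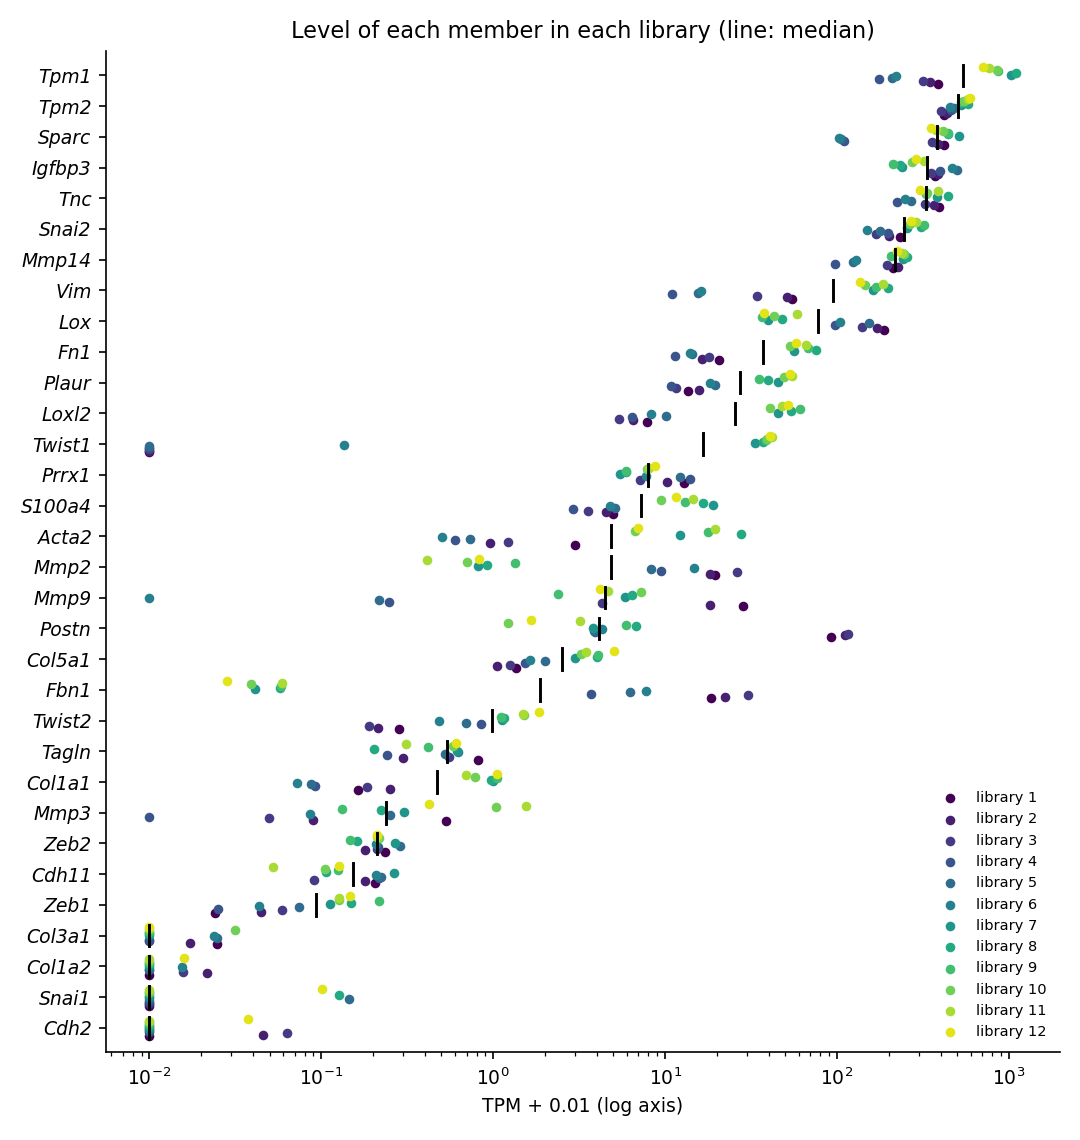
TPM plus 0.01 (log axis) of each of the 32 genes in each library; each point is 1 library, coloured by its number, and the vertical line is the median over the 12 libraries. Tpm1 and Tpm2 lie highest, Cdh2, Snai1, Col1a2 and Col3a1 have a median of 0, and the points of Twist1, Fbn1, Postn, Vim and Loxl2 fall apart into high and low libraries.

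The 32 genes differed greatly in how much they varied. The spread of a gene is given here as its highest CPM divided by its lowest over the libraries, with 0.5 CPM added to each. By this measure 14 of the 22 measured members had a ratio of 4 or more, beside 8.49% of all 11801 measured genes. The median ratio was 4.89 among measured members and 1.59 among all measured genes, and 3.43 over all 32 members against 1.53 over the whole table. A gene that is near 0 in 6 libraries is measured only through the others, so such a gene has a wide ratio by construction, and these counts are a description. The ratios nearest the limit were 4.11 for Col5a1, just inside, and 3.61 for S100a4, just outside.

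**Figure D3:**
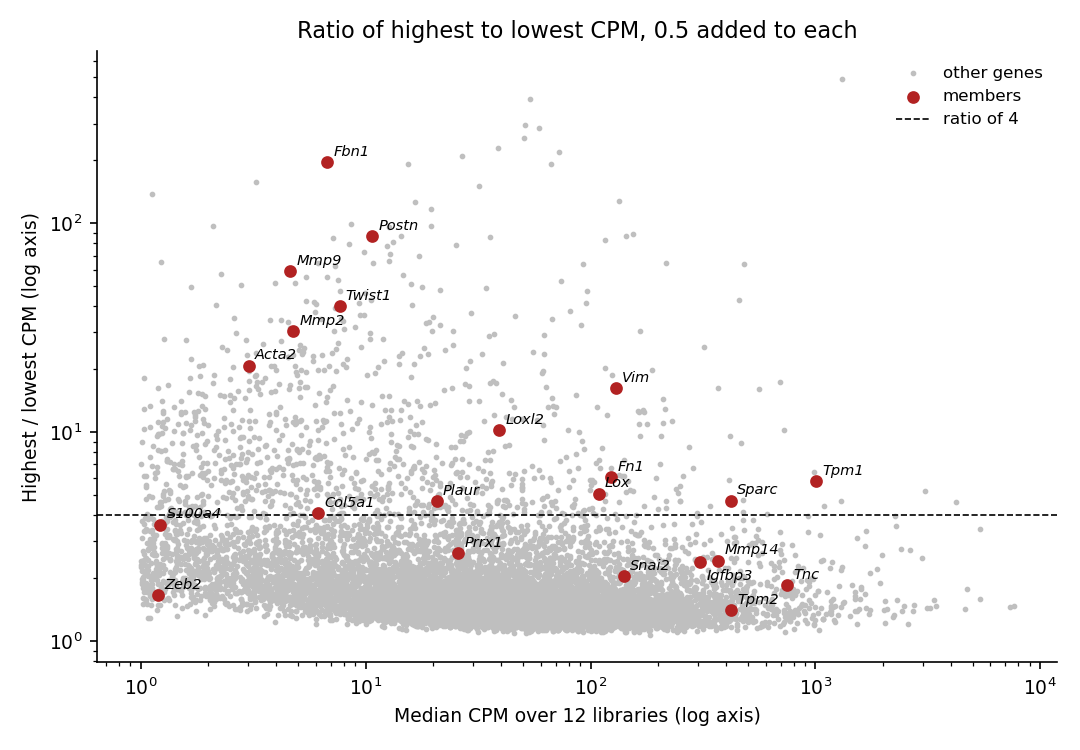
Highest over lowest CPM with 0.5 CPM added to each (log axis) against median CPM over the 12 libraries (log axis); red points are the 22 measured EMT genes, grey points the other measured genes, and the dashed line is a ratio of 4. Fbn1, Postn, Mmp9, Twist1, Mmp2 and Acta2 lie above a ratio of 20, and Tpm2, Zeb2 and Tnc lie below a ratio of 2.

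Among the transcription factors, Snai2 made up most of the transcripts. Snai2, also called Slug, is the SNAI-family repressor of basal keratinocytes. Snai2 (ENSMUSG00000022676.7; chromosome 16, 14705852 to 14709385, plus strand) had 136, 118, 102, 119, 106, 90.5, 145, 172, 185, 152, 167 and 156 CPM in libraries 1 to 12. Each of libraries 7 to 12 exceeded each of libraries 1 to 6, yet the ratio of highest to lowest was no more than 2.04. Snai2 took 84.0% to 95.7% of the summed TPM of the 7 factors in every library. Its relative Snai1 was nearly silent. Snai1 had 0, 0, 0, 0, 3, 0, 0, 2, 0, 0, 0 and 2 counts in libraries 1 to 12, at or under the limit of 3 counts throughout.

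Twist1, a basic helix-loop-helix factor of mesoderm and neural crest, was present or absent by library. Twist1 (ENSMUSG00000035799.6; chromosome 12, 33957671 to 33959829, plus strand) had 0, 0, 0, 0, 0, 3, 716, 634, 863, 896, 910 and 889 counts, or 0, 0, 0, 0, 0, 0.0613, 15.3, 16.7, 18.1, 18.0, 19.5 and 18.9 CPM, in libraries 1 to 12. Libraries 1 to 5 had no count and library 6 had 3 counts, whereas libraries 7 to 12 had 634 to 910 counts. The highest value, in library 11, was at least 286-fold higher than in libraries 1 to 5, with 3 counts in library 4, the shallowest of them, as the floor. With 0.5 CPM added the ratio was 40.1. In TPM, Twist1 reached 41.9 at its highest, far below Snai2 in the same libraries.

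Twist2, the close relative of Twist1, was low in all libraries but was highest in the same ones. It had 12, 9, 8, 35, 30, 22, 47, 38, 48, 67, 63 and 79 counts in libraries 1 to 12. The 6 highest Twist2 values in CPM were again those of libraries 7 to 12, at 0.998 to 1.68 CPM against 0.171 to 0.797 CPM in the others. Of the exonic bases of Twist2, 46.5% also lie in exons of the gene Gm29100, and the sources used here do not say whether strand was used in counting.

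The ZEB factors, zinc-finger repressors of Cdh1, were close to the limit of measurement. Zeb1 had 2, 5, 7, 2, 9, 5, 14, 15, 29, 17, 16 and 19 counts in libraries 1 to 12, at most 0.207 TPM. The 6 highest values lay in libraries 7 to 12, all of them small. Zeb2 was even across libraries, at 1.31, 1.01, 1.22, 1.23, 1.64, 1.21, 1.47, 0.841, 0.795, 1.19, 1.16 and 1.17 CPM, with a ratio of 1.66, and it stood at a median of 0.202 TPM. Cdh1, the textbook target of both, moved little, as given above.

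Prrx1, a homeobox factor of limb and craniofacial mesenchyme, did not share the order of Snai2 and Twist1. Prrx1 (ENSMUSG00000026586.16; chromosome 1, 163245119 to 163313710, minus strand) had 40.8, 33.1, 23.6, 45.9, 39.9, 25.9, 17.0, 18.0, 18.6, 24.6, 25.7 and 27.7 CPM in libraries 1 to 12, a ratio of 2.64. Libraries 1, 2, 4 and 5 were highest and libraries 7 to 9 lowest, while libraries 3, 6, 10, 11 and 12 overlapped in between.

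Promoters of the contrasting factors are shown as the 250 bases before the RefSeq start site (GRCm38), 5′ to 3′ on the strand of the gene. Capitals mark motifs found on either strand: the E-box CACCTG bound by SNAI and ZEB factors, the AP-1 element TGANTCA and the TATA box TATAAA, with the CArG box of serum response factor searched by name. The Twist1 window (chr12:33957421-33957670, plus strand) is shown because Twist1 was present or absent by library, and the Snai1 window (chr2:167537945-167538194, plus strand) because Snai1 was silent and is 1 of 2 EMT genes with this E-box among those that have a promoter row.
Twist1: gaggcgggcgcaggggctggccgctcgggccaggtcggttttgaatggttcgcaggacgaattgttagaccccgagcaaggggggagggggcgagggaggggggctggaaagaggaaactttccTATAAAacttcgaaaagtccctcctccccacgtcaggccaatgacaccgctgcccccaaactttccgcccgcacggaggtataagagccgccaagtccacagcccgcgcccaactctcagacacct
Snai1: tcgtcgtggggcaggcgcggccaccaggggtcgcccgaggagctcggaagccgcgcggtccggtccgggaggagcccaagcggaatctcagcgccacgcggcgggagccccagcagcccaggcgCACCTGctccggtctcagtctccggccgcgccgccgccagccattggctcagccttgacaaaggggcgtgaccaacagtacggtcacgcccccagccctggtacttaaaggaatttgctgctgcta
The Twist1 window held 1 TATA box, from 126 to 121 bases before the start, and no E-box of this form. The Snai1 window held 1 E-box, from 126 to 121 bases before the start. Over 32851 RefSeq windows of the same length, 17.2% held the E-box, 6.75% the AP-1 element, 12.4% the TATA box and 1.47% the CArG box. Promoter rows were found for 21 of the 32 genes, and windows that overlap an exon of their own gene are not shown.

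Vimentin, the intermediate filament of mesenchymal cells, followed Twist1 in the order of libraries but was never absent. Vim (ENSMUSG00000026728.9; chromosome 2, 13573927 to 13582826, plus strand) had 74.2, 70.8, 48.7, 15.4, 21.6, 23.0, 216, 258, 229, 196, 252 and 185 CPM in libraries 1 to 12, a ratio of 16.3. Libraries 4 to 6 were lowest, libraries 1 to 3 next, and libraries 7 to 12 highest, with no overlap between the 3 ranges. Set against Cdh1 in TPM, Vim was 0.0192 of the Cdh1 level in library 4 and 0.414 of it in library 9. Thus Vim stayed below Cdh1 in each of the 12 libraries.

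The mesenchymal cadherins were not measured. Cdh2, which encodes N-cadherin, had no count in 9 libraries and 4, 6 and 3 counts in libraries 2, 3 and 12. Cdh11, the cadherin of osteoblasts and fibroblasts, had 5 to 30 counts, at most 0.254 TPM. In TPM both stood far below Cdh1 in each of the 12 libraries.

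Among actin-associated genes, the tropomyosins dominated and differed from each other. Tropomyosins lie along actin filaments and set their access to myosin. Tpm1 (ENSMUSG00000032366.15; chromosome 9, 67022590 to 67049406, minus strand) had 716, 664, 608, 339.9, 396, 426, 1883, 1978, 1603, 1576, 1428 and 1306 CPM in libraries 1 to 12, a ratio of 5.81. As for Vim, libraries 4 to 6 were lowest, 1 to 3 intermediate and 7 to 12 highest, with no overlap. Tpm2 (ENSMUSG00000028464.16; chromosome 4, 43514711 to 43523765, minus strand) was nearly level, at 351, 373, 351, 396, 412, 398, 435, 462, 436, 455, 481 and 493 CPM, a ratio of 1.41 and the smallest among measured members. In TPM, Tpm1 was 0.385 of Tpm2 in library 4 and 1.94 of it in library 7, so the order of these genes changed between libraries. Counts per gene do not separate the isoforms of Tpm1.

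Acta2, the smooth muscle actin of myofibroblasts, was low but variable. Acta2 (ENSMUSG00000035783.9; chromosome 19, 34241090 to 34255590, minus strand) had 1.87, 0.609, 0.790, 0.387, 0.470, 0.327, 7.56, 16.7, 11.1, 4.16, 12.3 and 4.35 CPM in libraries 1 to 12, a ratio of 20.8. The 6 highest values were those of libraries 7 to 12, and among them libraries 8, 9 and 11 stood well above libraries 10 and 12. Tagln, an actin-binding protein that usually accompanies Acta2 in myofibroblasts, was not measured. It had 22, 8, 15, 6, 14, 18, 16, 4, 11, 16, 8 and 16 counts in libraries 1 to 12, with the fewest in library 8, where Acta2 was highest. Of its exonic bases, 67.9% are shared with exons of Pcsk7 and Gm48529. S100a4, a calcium-binding protein also called fibroblast-specific protein, had 0.831, 0.777, 0.619, 0.501, 0.875, 0.838, 3.11, 2.68, 2.18, 1.57, 2.43 and 1.93 CPM in libraries 1 to 12. Libraries 7 to 12 were again the 6 highest, and 51.7% of its exonic bases are shared with Gm42674.

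The fibrillar collagens of mesenchyme were all but missing. Col1a1, Col1a2 and Col3a1, which encode the chains of collagens I and III, summed to 0.0816 to 1.05 TPM. Col1a1 had 14, 22, 16, 7, 7, 6, 86, 66, 94, 72, 60 and 92 counts in libraries 1 to 12, highest in libraries 7 to 12. Col1a2, the partner chain of Col1a1, had at most 2 counts, and Col3a1 at most 3. Both were at or under the limit of 3 counts in every library. Col5a1 (ENSMUSG00000026837.16; chromosome 2, 27886425 to 28039514, plus strand), a minor fibrillar collagen that nucleates fibrils, was the collagen that was measured. It had 3.32, 2.63, 3.16, 3.87, 5.04, 4.17, 7.22, 9.40, 9.98, 7.88, 8.50 and 12.3 CPM in libraries 1 to 12, a ratio of 4.11, and libraries 7 to 12 held the 6 highest values. Without library 2 or library 12 its ratio was 3.51 or 3.35, below the limit of 4.

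The matrix glycoproteins were measured in full, and their patterns differed. Fibronectin joined Vim. Fn1 (ENSMUSG00000026193.15; chromosome 1, 71585520 to 71653200, minus strand), the glycoprotein that links integrins to matrix, had 69.1, 56.2, 62.3, 39.6, 48.9, 49.2, 186, 244, 228, 178, 221 and 192 CPM in libraries 1 to 12, a ratio of 6.08. Libraries 4 to 6 were lowest, libraries 1 to 3 followed, and libraries 7 to 12 were highest, with no overlap.

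Fibrillin-1 ran against it. Fbn1 (ENSMUSG00000027204.13; chromosome 2, 125300594 to 125507993, minus strand), the backbone of elastic microfibrils, had 64.3, 79.3, 109.6, 13.3, 22.3, 28.1, 0.107, 0.158, 0.167, 0.101, 0.172 and 0.0637 CPM in libraries 1 to 12. Libraries 1 to 3 were highest, libraries 4 to 6 intermediate, and libraries 7 to 12 had 3 to 8 counts each. The ratio was 195 with 0.5 CPM added, the largest among the measured members. Without the added value, library 3 with 5137 counts stood 1721-fold above library 12 with 3 counts (95% counting interval 589 to 8348, exact Clopper-Pearson, counting error only). Of the exonic bases of Fbn1, 20.1% are shared with Gm9913.

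Periostin separated libraries 1 to 3 from the rest. Postn (ENSMUSG00000027750.16; chromosome 3, 54361109 to 54391037, plus strand), a matricellular protein of periosteum and of tumour stroma, had 229.8, 284, 302, 10.1, 9.86, 11.2, 9.35, 16.3, 14.8, 3.00, 7.97 and 4.12 CPM in libraries 1 to 12, a ratio of 86.6. Libraries 1 to 3 stood far above the others. Libraries 4 to 6 overlapped with libraries 7 to 12, unlike for Fbn1, and libraries 10 and 12 were lowest. RefSeq gives it more than 1 start, and the window before the start nearest that of the deposited gene (chr3:54360857-54361106, plus strand) is shown because Postn had the widest ratio among the genes with a promoter window that could be shown.
Postn: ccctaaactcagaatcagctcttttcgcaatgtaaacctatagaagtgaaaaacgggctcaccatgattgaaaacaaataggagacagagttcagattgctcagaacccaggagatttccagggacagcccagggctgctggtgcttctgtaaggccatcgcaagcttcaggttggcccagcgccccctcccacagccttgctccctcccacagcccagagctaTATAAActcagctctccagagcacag
It held 1 TATA box, from 26 to 21 bases before the start, and neither the E-box, the AP-1 element nor the CArG box in the forms searched. The window of the other start, chr3:54359017-54359266, held none of the motifs.

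Tenascin-C and SPARC were abundant. Tnc (ENSMUSG00000028364.15; chromosome 4, 63959785 to 64047015, minus strand), a matrix protein of wound edges, had 879, 837, 757, 513, 613, 583, 835, 949, 731, 737, 865 and 674 CPM in libraries 1 to 12. Its ratio was 1.85, and libraries 4 to 6 were lowest. Sparc (ENSMUSG00000018593.13; chromosome 11, 55394500 to 55423183, minus strand), a collagen-binding matricellular protein, had 458, 429.7, 405, 123, 118, 117, 551, 460.1, 478, 448, 410.0 and 381 CPM, a ratio of 4.69. Libraries 4 to 6 were low, at 117 to 123 CPM, and the other 9 libraries overlapped with each other at 381 to 551 CPM.

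The lysyl oxidases, copper enzymes that crosslink collagen and elastin, went in opposite directions. Lox (ENSMUSG00000024529.14; chromosome 18, 52516067 to 52529867, minus strand) had 257, 239.8, 199, 137, 217, 148, 53.7, 63.2, 50.2, 58.6, 80.3 and 51.4 CPM in libraries 1 to 12, a ratio of 5.08, and each of libraries 1 to 6 exceeded each of libraries 7 to 12. Loxl2 (ENSMUSG00000034205.16; chromosome 14, 69609068 to 69695834, plus strand) had 12.1, 10.4, 8.71, 10.3, 16.0, 13.3, 68.8, 80.0, 93.8, 62.7, 74.0 and 80.4 CPM, a ratio of 10.2. For Loxl2 each of libraries 7 to 12 exceeded each of libraries 1 to 6. In TPM, Lox was above Loxl2 in libraries 1 to 6, 10 and 11 and below it in libraries 7, 8, 9 and 12. In library 1 the levels were 187 TPM for Lox and 7.81 TPM for Loxl2, and in library 9 they were 36.7 and 60.7 TPM.

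The matrix metalloproteinases were led by Mmp14, the membrane-bound protease that activates the secreted gelatinase Mmp2. Mmp14 (ENSMUSG00000000957.11; chromosome 14, 54431612 to 54445364, plus strand) had 361, 398, 349, 173, 216, 229, 408, 420.5, 352, 417, 407 and 379 CPM in libraries 1 to 12, a ratio of 2.43. Libraries 4 to 6 were lowest, and the other 9 overlapped. Mmp2 (ENSMUSG00000031740.8; chromosome 8, 92827291 to 92853420, plus strand) had 18.8, 17.9, 26.5, 9.44, 8.22, 14.9, 0.767, 0.841, 1.28, 0.663, 0.387 and 0.786 CPM, a ratio of 30.4. Its 6 highest values were those of libraries 1 to 6, the reverse of Vim and Twist1. Within them libraries 1 to 3 lay above libraries 4 to 6, as for Fbn1.

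Mmp9, the second gelatinase, had a pattern of its own. Mmp9 (ENSMUSG00000017737.2; chromosome 2, 164940780 to 164955850, plus strand) had 28.9, 18.8, 4.52, 0.250, 0.213, 0, 5.82, 6.23, 2.39, 7.30, 4.72 and 4.20 CPM in libraries 1 to 12. Libraries 1 and 2 were highest, library 3 lay among libraries 7 to 12, and libraries 4 to 6 had 11, 10 and 0 counts. Library 1 was at least 471-fold higher than library 6, with 3 counts as the floor. With 0.5 CPM added the ratio was 58.7, and without library 1 it was 38.6. Mmp3, stromelysin-1, was not measured, at 13, 2, 1, 0, 6, 2, 7, 4, 3, 26, 37 and 10 counts in libraries 1 to 12, of which libraries 10 and 11 held the most.

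**Figure D4:**
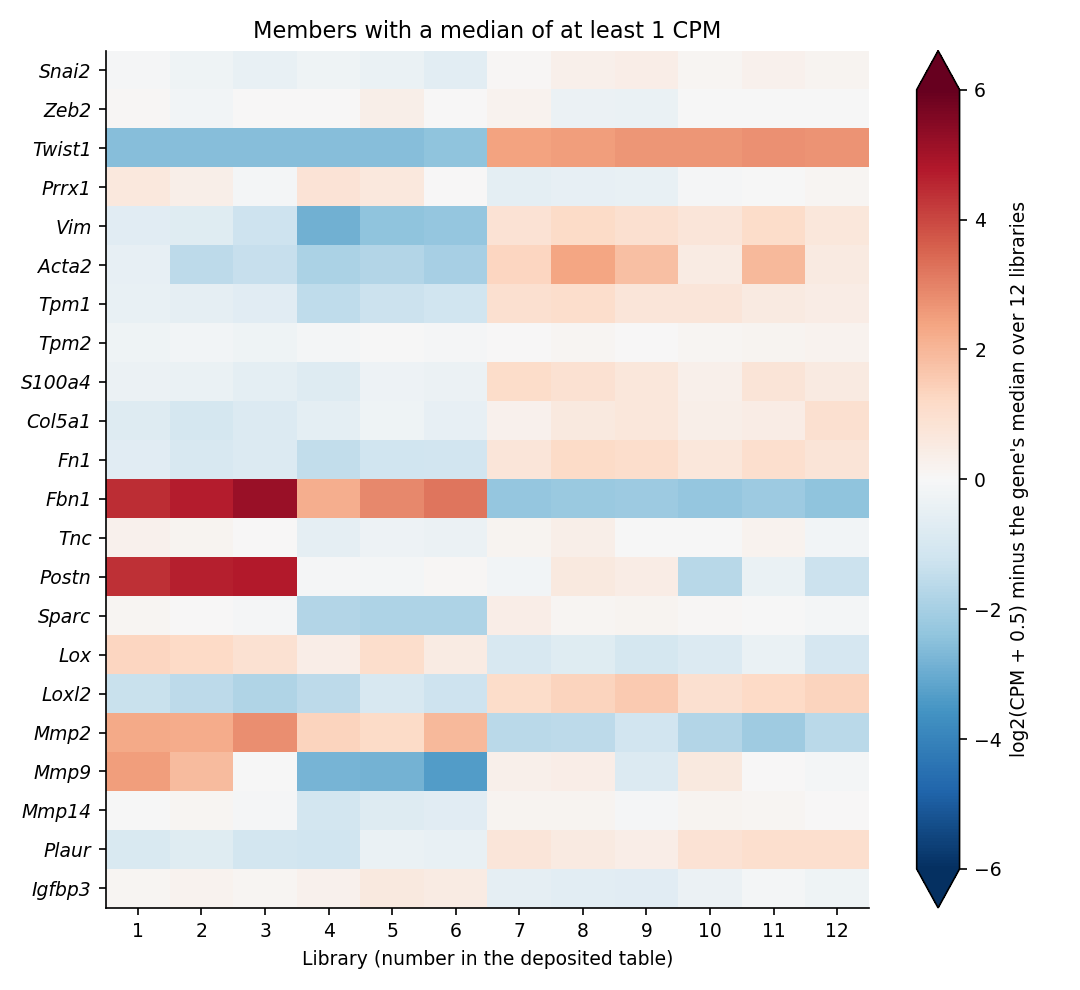
log2(CPM + 0.5) of the 22 measured EMT genes in each library, minus the median of the gene over the 12 libraries; red is above the median and blue below, and genes are ordered by role. Twist1, Vim, Acta2, Tpm1, S100a4, Col5a1, Fn1, Loxl2 and Plaur are above their median in libraries 7 to 12, Fbn1, Lox and Mmp2 are above it in libraries 1 to 6, and Postn is far above it in libraries 1 to 3.

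Plaur, the urokinase receptor that focuses plasmin activity at the cell surface, and Igfbp3, a secreted carrier of insulin-like growth factors, were the remaining members. Plaur (ENSMUSG00000046223.10; chromosome 7, 24462484 to 24475968, plus strand) had 10.2, 12.0, 8.96, 8.37, 15.0, 14.4, 33.4, 28.8, 26.4, 36.3, 41.1 and 40.0 CPM in libraries 1 to 12, a ratio of 4.69, with libraries 7 to 12 highest. Igfbp3 (ENSMUSG00000020427.11; chromosome 11, 7206086 to 7213923, minus strand) had 335, 355, 328, 369, 457, 437, 212, 199.9, 190.2, 241, 286 and 259 CPM, a ratio of 2.40, with libraries 7 to 12 lowest. Libraries 7 to 12 were thus the high ones for Plaur and the low ones for Igfbp3, yet within these 6 libraries both genes had the same order.

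Covariation was measured only within libraries that form 1 set. By genes outside the lists, libraries 7 to 12 formed such a set, whereas libraries 1 to 6 fell apart into parts too small for a correlation. The 16 pairs were chosen with earlier results known. Of them, 7 had both genes measured and were tested on log2(CPM + 0.5) over these 6 libraries. Igfbp3 and Plaur gave Pearson's r = 0.97 (exact permutation test, two-sided, p = 0.00417, Benjamini-Hochberg adjusted p = 0.0292, n = 6) and Spearman's rho = 1 (exact p = 0.00278, the smallest that 6 libraries allow, adjusted p = 0.0194). Without the 2 libraries farthest from the median of Igfbp3, r was 0.97 over 4 libraries. In both genes libraries 7 to 9 were the 3 lowest of these 6 and libraries 10 to 12 the 3 highest, so the r holds a step between these parts, and within each part the order was also the same. Over the genes outside the lists these parts missed the rule for separate sets narrowly, with a lowest r of 0.985 within them and a highest of 0.988 between them. The permutation test takes the 6 libraries as interchangeable, which a step between parts would break, so its p-values here are a description. Whether this step follows the study's groups was not tested. With all 16 pairs tested, whatever their level, the adjusted p for r was 0.0667 in the same exact test.

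For r, the other 6 pairs had adjusted exact permutation p of 0.389 or more. For Tpm1 and Tpm2 r was -0.68 (exact permutation p = 0.146, adjusted p = 0.389) with rho -0.66. Fn1 with Tnc gave r = 0.55 and Mmp2 with Mmp14 gave r = -0.66, with exact permutation p = 0.222 and 0.193. Vim gave r = 0.22 with Sparc and -0.14 with Cdh1, and Fn1 gave -0.18 with Mmp14 (adjusted exact permutation p = 0.775 for all 3). Without the 2 libraries farthest from the median of the gene named first in the fit, r moved to -0.84 for Tpm1 and Tpm2, 0.10 for Fn1 and Tnc, -0.16 for Mmp2 and Mmp14, -0.39 for Vim and Sparc, -0.84 for Cdh1 and Vim and -0.49 for Fn1 and Mmp14, each over 4 libraries. The r of Vim and Sparc changed sign, and no relation is read from these 6 pairs.

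The windows before the starts of Igfbp3 and Plaur are shown because this pair passed. Igfbp3 is the other EMT gene with the E-box, and its window (chr11:7213924-7214173, minus strand) held it from 172 to 167 bases before the start. The Plaur window (chr7:24462233-24462482, plus strand) held 1 AP-1 element, from 69 to 63 bases before the start.
Igfbp3: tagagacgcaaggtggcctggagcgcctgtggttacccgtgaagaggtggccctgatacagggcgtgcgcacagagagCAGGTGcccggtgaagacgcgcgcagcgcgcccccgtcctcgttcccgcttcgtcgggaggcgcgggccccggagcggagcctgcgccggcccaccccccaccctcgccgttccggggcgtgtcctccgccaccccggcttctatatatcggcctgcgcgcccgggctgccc
Plaur: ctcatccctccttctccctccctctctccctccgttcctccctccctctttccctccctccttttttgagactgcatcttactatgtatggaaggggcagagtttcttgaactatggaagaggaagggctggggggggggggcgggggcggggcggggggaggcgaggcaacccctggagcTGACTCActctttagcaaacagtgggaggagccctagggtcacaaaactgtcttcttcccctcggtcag
The windows shared none of the motifs searched. A match describes the letters and not the binding of a factor.

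A wider list of 104 EMT-associated genes placed these members among their pathway. Of these, 101 had a row, 89 were measured and 34 of the measured had a ratio of 4 or more, with a median ratio of 2.90. Among all measured genes, 8.49% had such a ratio and the median ratio was 1.59. Ctgf, Cyr61 and Dkk1 were not analysed here. The most abundant were genes that squamous epithelium is known to express. They were Ecm1 (median 4428 TPM), a matrix protein of epidermis, Vegfa (2123 TPM), the angiogenic factor, and Sdc1 (1348 TPM), a cell-surface proteoglycan. The hemidesmosomal collagen Col17a1 (1184 TPM), the integrins Itgb1 (1077 TPM), Itgb4 (977 TPM) and Itga3 (659 TPM), and the tropomyosin Tpm4 (737 TPM) followed.

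The most uneven genes of the wider list had orders seen above. Col4a1 and Col4a2, the paired chains of basement membrane collagen IV, had 6.17, 4.89, 3.67, 4.98, 7.88, 6.87, 342, 346, 303, 249, 259.6 and 224 CPM and 5.29, 6.09, 2.65, 2.66, 4.25, 3.97, 401, 352, 314, 312, 289 and 261 CPM in libraries 1 to 12. Like Twist1, both were high in libraries 7 to 12, with ratios of 83.1 and 128. Timp3, an inhibitor of metalloproteinases, had 992, 974, 1036, 288, 365, 318, 18.3, 20.8, 18.0, 12.6, 19.3 and 11.2 CPM and was ordered like Fbn1, highest in libraries 1 to 3 and lowest in libraries 7 to 12. Fstl1, a secreted glycoprotein, followed the same order, from 150.3 CPM in library 2 to 1.61 CPM in library 12. Igfbp7, a relative of Igfbp3, and Hmga2, a chromatin protein of embryonic cells, were highest in libraries 7 to 12, at up to 350.0 and 330.3 CPM against at most 45.7 and 52.2 CPM in libraries 1 to 6.

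Set side by side, 11 of the 22 measured EMT genes had each of libraries 7 to 12 above each of libraries 1 to 6, beside 16.3% of all measured genes. They were Snai2, Twist1, Vim, Tpm1, Tpm2, Acta2, S100a4, Col5a1, Fn1, Loxl2 and Plaur. The reverse held for 4, namely Fbn1, Lox, Mmp2 and Igfbp3, beside 14.5% of all measured genes. In the other 7, Zeb2, Prrx1, Mmp9, Mmp14, Sparc, Tnc and Postn, these libraries overlapped. This division of the libraries was itself read from the data, where it is the first division by the most variable genes outside the lists. Some of these genes passed the limit of 1 CPM only through the libraries where they were high. Among the 11 these were Twist1, S100a4 and Acta2, and among the 4 they were Fbn1 and Mmp2. Acta2 had 1.87 CPM in library 1 and 0.327 to 0.790 CPM in libraries 2 to 6. Mmp2 had 1.28 CPM in library 9 and 0.387 to 0.841 CPM in the others of libraries 7 to 12. For these reasons the counts are a description. The part that genotype, organoid line or SB431542 had in these orders was not tested, since the libraries carry no link to the groups.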

How the data were processed

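RNA from mouse papilloma organoids was sequenced, and the deposited table holds raw counts per protein-coding gene for 12 libraries. The submitters' processing notes name cutadapt, featureCounts, DESeq2 and the builds GRCm38 and mm10. The sources used here state neither their roles and versions nor the aligner and any use of strand. Values deposited by the authors are counts, all of them whole numbers, and no normalization was found in them. No column name fits a sample label, 0 value columns went unused, and the planned comparisons of genotype and treatment were not run.

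CPM was each count per 1000000 of the library's total, and TPM was the count per deposited gene length, rescaled to sum to 1000000 per library. A gene was called measured at a median of at least 1 CPM, and wide at a ratio of highest to lowest CPM of at least 4 with 0.5 CPM added. Libraries were clustered on the 2000 most variable genes outside the lists by average linkage, and correlations were computed only within a set of at least 6 that did not separate further. All 720 orders of 6 libraries were enumerated. A p-value is the share of these orders with an r or rho at least as large in absolute value as that observed. It takes the libraries as interchangeable, and the spread between them may be technical. The ratio was tested on simulated counts with counting error alone, in genes well above 1 CPM. It was not tested for genes near the floor in some libraries or for spread between libraries. TMM factors came from edgeR 4.0.16, size factors from DESeq2 1.42.0, and the rest from Python 3.11.15 with scipy 1.17.1. The depth, 38069561 to 49737796 counts, limits precision mainly for genes under 1 CPM.

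All 32 members are named with a value. The 12 of highest median TPM and all wide measured members are shown in every library, and others where their counts are few. Of the wider list, the 8 of highest median TPM and the 6 of widest ratio with a median of at least 5 CPM are named, and of each marker list the 3 of highest median TPM. The members, pairs and lists were chosen with earlier results of these data known. Positions are those of the table (GRCm38, counted from 1), and promoter sequences come from RefSeq on GRCm38.p6. Alternatives were other scalings, filters, added values and limits, and leaving out each library.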

Additional observations from a re-analysis of the deposited data

How the results depend on the processing

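The number of measured members was 22 under both other scalings, 24 with a median of at least 0.5 CPM and 20 with at least 2 CPM. It was 20 to 22 when each library was left out in turn. Without any of libraries 1 to 6, Fbn1 fell under the limit (median 0.172 CPM) and Col1a1 passed it (1.29 CPM), and without any of libraries 7 to 12, Twist1 (0.0613 CPM) and S100a4 (0.875 CPM) fell under it, since these genes divide the libraries 6 to 6. The number of wide members was 14 under both scalings and with every filter on level, 15 with 0.1 CPM added, 13 with 2 CPM added, 19 at a ratio of 2, and 12 to 13 when each library was left out in turn. Of 22 ratios, 5 moved by over 1.5 times with 0.1 CPM added and 6 with 2 CPM added. Leaving out library 1 so moved 1 ratio, that of Mmp9. Of the pairs, 1 had an adjusted p at or under 0.05 for r (exact permutation test) with 2 CPM added and with TMM factors. With no filter on level, 16 pairs were tested in the same way. Then 0 had such an adjusted p, and 3 had an unadjusted p under 0.05. Igfbp3 with Plaur then had adjusted exact permutation p = 0.0667 for r and 0.0444 for rho, and 0.0292 for r in the other settings. These p-values are a description, as given above. No paired analysis was possible because the value columns carry no replicate label or group. Snai1, Cdh2, Col1a2 and Col3a1 rest on at most 6 counts in a library, so no difference between libraries is read from them.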

Other observations

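Genes of the epithelial list, the counterpart of EMT, also had opposite orders over the libraries. Dsp, the desmosomal plaque protein desmoplakin, had 1292, 951, 929, 1847, 1538, 1106, 545, 673, 612, 584, 598 and 687 TPM in libraries 1 to 12, and its 6 lowest values were those of libraries 7 to 12. The same held for Krt14, at 5563 to 7599 TPM in libraries 7 to 12 and 13145 to 18810.3 TPM in libraries 1 to 6, and for Klf4, a factor of keratinocyte differentiation, at 192 to 281 and 487 to 787 TPM. Grhl3, a factor of the skin barrier, was highest in libraries 4 to 6, at 137 to 171 TPM. Libraries 1 to 3 followed at 70.0 to 75.4 TPM, and libraries 7 to 12 were again lowest, at 39.1 to 58.2 TPM.

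Of the 34 genes of the list, 13 (38.2%) had each of libraries 7 to 12 below each of libraries 1 to 6 in TPM. In 6 (17.6%) they were above, and 15 overlapped, among them the junction genes Tjp1, Marveld2, Marveld3 and Crb3. Among all measured genes, counted in CPM, 14.5% were below and 16.3% above, so the share above was near that of all measured genes. The 6 above were Epcam, Cldn4, Cldn7, Ocln, Lsr and St14. Epcam had 875, 1061, 825, 628, 784, 838, 1582, 1739, 1573, 1668, 1647 and 1501 TPM in libraries 1 to 12, and its 6 highest values were those of libraries 7 to 12, where Vim and Twist1 were also highest. Cldn7, a tight junction claudin, had 18.4, 21.3, 15.7, 12.8, 18.3, 15.3, 71.1, 49.5, 52.0, 75.4, 70.0 and 59.1 TPM, with the same libraries highest. Ocln, the tight junction protein occludin, had its 6 highest values there too, at 12.0 to 16.0 TPM beside 6.56 to 10.1 TPM. The genes named here were chosen after their values were seen.

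The libraries themselves fell into sets by the 2000 most variable genes outside all lists. Each of libraries 1 to 6 had an r of at least 0.893 with the others of that set, and each of libraries 7 to 12 an r of at least 0.975 with the others of its own, beside at most 0.758 across. Libraries 1 to 3 and libraries 4 to 6 separated again, with r of at least 0.969 within and at most 0.955 between. These sets come from the data, and how they relate to the study's groups was not tested.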
